A study of Homo sapiens with 6 samples.

Results

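Mitochondrial DNA is copied, transcribed and its RNA kept or destroyed by proteins that are themselves encoded in the nucleus. The 10 genes described here are POLRMT, TFAM, TFB1M, TFB2M, TEFM, POLG, TWNK (older symbol C10orf2), LRPPRC, SLIRP and PNPT1. They are listed by name for these roles, with no threshold on a measured value, and were matched by symbol to 10 of the 63241 Ensembl gene identifiers in the count files. All 10 were among the 15295 genes that passed the filter on low counts and were tested. RNA was sequenced from MDA-MB-231, a line of human breast tumor cells of the triple-negative type that is labelled as wild type, after 24 h with 5 μM nitidine chloride (NCD, a plant alkaloid), named NCD1 to NCD3, or after 24 h with 0.1% DMSO, the vehicle control, named DMSO1 to DMSO3. The comparison asks how NCD altered gene expression in these tumor cells, and each group had 3 libraries of 18223594 to 21629653 counts.

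The labels do not say whether the libraries of a group came from separate cultures, so p-values measure the spread between these samples, which may be technical. The free-text descriptions of NCD2 and NCD3 carry other cell line numbers, while their cell line field gives MDA-MB-231. In all 6 libraries the mesenchymal markers of this line were abundant, with a mean of 3056 CPM (counts scaled to the size of the library) for VIM and 977 for CD44 with DMSO, and 2638 and 277 with NCD. The estrogen receptor gene ESR1 had at most 7 counts in any library, PGR had at most 3, and the leukocyte gene PTPRC had at most 1. ERBB2, the third receptor that is low in this type of tumor, was present at 37.2 CPM with DMSO and 61.0 CPM with NCD, and CD68, a macrophage marker that other cells also express, at 84.6 and 91.0 CPM. Of 7 markers of other cell types, PTPRC, CD3E, ALB, CDH1 and PECAM1 had at most 21 counts in any library, and EPCAM had 45 to 93. The first principal component of the libraries held 87.6% of the variance and separated the groups. All values come from bulk RNA of 1 cell line, in which fewer cells of a kind and less RNA per cell cannot be told apart.

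Transcription of mitochondrial DNA is carried out by the single-subunit polymerase POLRMT, which TFAM and TFB2M place and open at the promoters and which TEFM makes processive. POLG and the helicase TWNK form the core of the replication machinery. After transcription of long polycistronic RNA and its cleavage, the complex of LRPPRC and SLIRP keeps mitochondrial mRNAs stable and polyadenylated, and PNPT1, the polynucleotide phosphorylase of mitochondria, degrades RNA together with the helicase SUPV3L1. Nuclear genes of this group are classical targets of NRF1 and of ETS-family factors such as GABP.

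The promoter stretches are shown because they hold the NRF1-type motif in POLRMT, TFB1M and TFB2M, the polymerase and both members of the TFB family, whose RNA levels did not move together. They come from RefSeq on GRCh38.p14, run 5′ to 3′ on the minus strand of each gene, end before the RefSeq start site, and carry the motif GCGCATGC, or its reverse complement, in capitals.
POLRMT, distal (chr19:633605-633682): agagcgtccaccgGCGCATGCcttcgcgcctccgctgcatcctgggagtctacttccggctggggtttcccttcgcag
POLRMT, proximal (chr19:633538-633567): gcgcggGCGCATGCGCaggcgcgggccggt
TFB1M (chr6:155314494-155314629): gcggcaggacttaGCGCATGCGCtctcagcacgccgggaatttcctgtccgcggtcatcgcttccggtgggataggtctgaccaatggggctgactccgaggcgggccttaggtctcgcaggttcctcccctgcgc
TFB2M (chr1:246566262-246566291): aaggctccgctgttcGCATGCGCaggctct

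An entry, which runs from 250 bases before to 50 bases after the start, was found for 9 of the 10 genes. The motif GCGCATGC was present on either strand in 3 of them, and in 3.05% of all 35116 promoters and 4.71% of the 16003 promoters of tested genes. In the proximal POLRMT stretch and in TFB1M the capitals cover a pair of overlapping matches, one on each strand. The shorter palindrome TGCGCA, which can overlap the first motif, was present in POLRMT and TFB2M and in 12% of promoters of tested genes. The ETS-type motif CCGGAAG was present in POLRMT, TFB1M, TEFM and SLIRP and in 16.7% of promoters of tested genes. The interferon-response type motif GAAANNGAA, searched because PNPT1 is known as an interferon-inducible gene, was found in none of the 9 and in 6.67% of promoters of tested genes. A match describes the letters in this window only.

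With NCD, 3 of the 10 RNAs rose, namely TWNK, TFAM and POLRMT, and 4 fell, namely LRPPRC, TFB1M, POLG and PNPT1. For TFB2M, TEFM and SLIRP the difference did not pass the test. By edgeR's quasi-likelihood test with a Benjamini-Hochberg adjusted p below 0.05, 69.3% of all tested genes passed, 35.3% higher and 34.1% lower with NCD, so that the share of these genes that passed was close to the background. With libraries scaled by their totals in place of TMM, the genes that passed were 6828 higher and 4168 lower, beside 5393 and 5209. LRPPRC and TFB1M, both lower, also passed an absolute log2 fold change of 1, against 31.0% of all tested genes in either direction and 17.5% in the lower direction. The median log2 fold change of the 10 genes was -0.14, beside 0.04 over all tested genes. In each of the 7 genes that passed, the 3 NCD libraries did not overlap with the 3 DMSO libraries, and in the other 3 genes the groups overlapped. The groups did not overlap in 72.6% of all tested genes, so this count too was close to the background. Exact two-sided permutation tests on CPM gave p = 0.1 for each of the 7, the smallest value that 3 against 3 libraries allow.

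**Figure D1:**
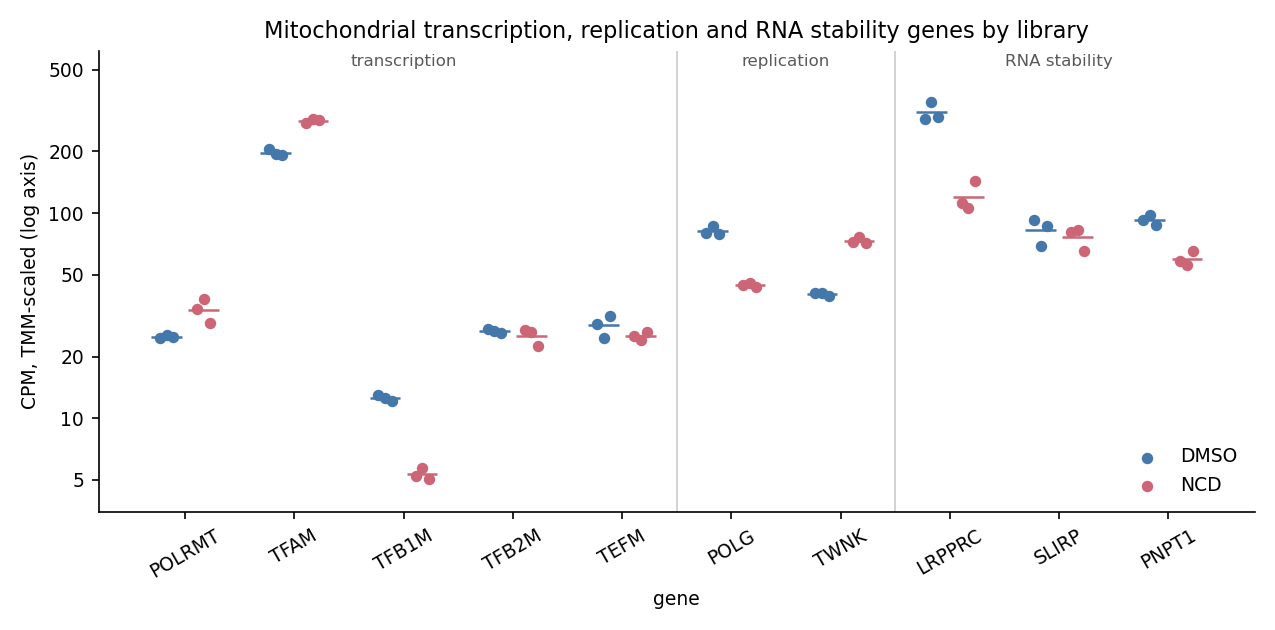
Expression of the 10 genes in each library, as CPM scaled by TMM on a logarithmic axis, with 1 point for each of the 3 DMSO and 3 NCD libraries and a bar at the group mean. The groups are separate in 7 genes and overlap in TFB2M, TEFM and SLIRP.

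POLRMT (ENSG00000099821, chr19:617224-633604, minus strand), the mitochondrial RNA polymerase, had 24.6, 25.4 and 24.9 CPM in DMSO1 to DMSO3 and 34.1, 38.0 and 29.1 CPM in NCD1 to NCD3. All NCD libraries were above all DMSO libraries, and they spread more widely among themselves than the DMSO libraries did. Its level rose from 25.0 ± 0.382 to 33.7 ± 4.45 CPM (SD, n = 3 in each group), a log2 fold change of 0.43 (SE 0.10, edgeR adjusted p = 0.00462). Its log2 fold change was the smallest of the 7 that passed, and the 95% interval ran from 0.20 to 0.66.

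TFAM (ENSG00000108064, chr10:58385022-58399221, plus strand) both starts transcription and packages mitochondrial DNA into nucleoids. It had 206, 194 and 193 CPM with DMSO and 276, 288 and 284 CPM with NCD. The libraries of each group lay close together, with a clear gap between the groups. TFAM rose from 198 ± 7.29 to 283 ± 5.81 CPM (SD, n = 3), a log2 fold change of 0.52 (SE 0.06, edgeR adjusted p = 3.17e-05).

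TFB2M and TFB1M are related methyltransferase-like proteins with different tasks, since TFB2M serves as the initiation factor and TFB1M methylates the small mitochondrial rRNA. TFB2M (ENSG00000162851, chr1:246540560-246566324, minus strand) had 27.1, 26.5 and 25.9 CPM with DMSO and 27.1, 26.2 and 22.6 CPM with NCD. These groups overlapped. The log2 fold change was -0.07 (95% interval -0.27 to 0.14, edgeR adjusted p = 0.519). TFB1M (ENSG00000029639, chr6:155257509-155314493, minus strand) had 13.02, 12.6 and 12.1 CPM with DMSO and 5.24, 5.74 and 5.08 CPM with NCD. Every NCD library was below every DMSO library. TFB1M fell by 1.23 on the log2 scale (SE 0.11, edgeR adjusted p = 8.98e-06), which made its level 2.35-fold lower.

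The count ratio of TFB2M to TFB1M was 2.08, 2.11 and 2.14 with DMSO and 5.15, 4.59 and 4.46 with NCD. This ratio is taken within a library and does not depend on how libraries are scaled. It was 2.24-fold higher with NCD, a log2 difference of 1.16 beside a pooled SD of 0.08 between libraries (exact permutation p = 0.1, the smallest possible). Both promoters hold the capitalised motif printed above.

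TEFM (ENSG00000172171, chr17:30897336-30906820, minus strand), the elongation factor of POLRMT, had 28.9, 24.7 and 31.6 CPM with DMSO and 25.2, 24.2 and 26.5 CPM with NCD. DMSO2 lay within the range of the NCD libraries. The log2 fold change was -0.17 (95% interval -0.40 to 0.06, edgeR adjusted p = 0.167). Without DMSO2 it was -0.27 with an edgeR adjusted p = 0.0289, so that the call for TEFM rests on this library. The count ratio of POLRMT to TEFM was 0.853, 1.03 and 0.790 with DMSO and 1.36, 1.57 and 1.10 with NCD, 1.5-fold higher with NCD and without overlap (log2 difference 0.58 beside a pooled SD of 0.23, exact permutation p = 0.1).

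The catalytic subunit of the replicative polymerase and the replicative helicase moved in opposite directions. POLG (ENSG00000140521, chr15:89305198-89334861, minus strand), the polymerase, had 80.3, 86.9 and 79.5 CPM with DMSO and 44.8, 45.4 and 43.6 CPM with NCD. It fell by 0.88 on the log2 scale (SE 0.07, edgeR adjusted p = 2.96e-06), and its level was 1.84-fold lower. TWNK (ENSG00000107815, chr10:100987367-100994401, plus strand), the Twinkle helicase, had 40.9, 41.0 and 39.3 CPM with DMSO and 72.3, 76.7 and 71.2 CPM with NCD. It rose by 0.86 on the log2 scale (SE 0.07, edgeR adjusted p = 3.33e-06), and its level was 1.82-fold higher. Within each gene the libraries of a group differed far less than the groups did.

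The count ratio of TWNK to POLG was 0.509, 0.472 and 0.494 with DMSO and 1.62, 1.69 and 1.63 with NCD. The groups were widely separate. The ratio was 3.35-fold higher with NCD, a log2 difference of 1.74 beside a pooled SD of 0.05. The pair was formed after the data were seen. TWNK rose and POLG fell without overlap, so the separation of their ratio was fixed in advance. It is given as a description and not as a further test. On the scale of CPM per kb of the principal transcript, POLG went from 18.3 to 9.91 and TWNK from 11.2 to 20.3, which turned the order of the helicase and the polymerase.

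**Figure D2:**
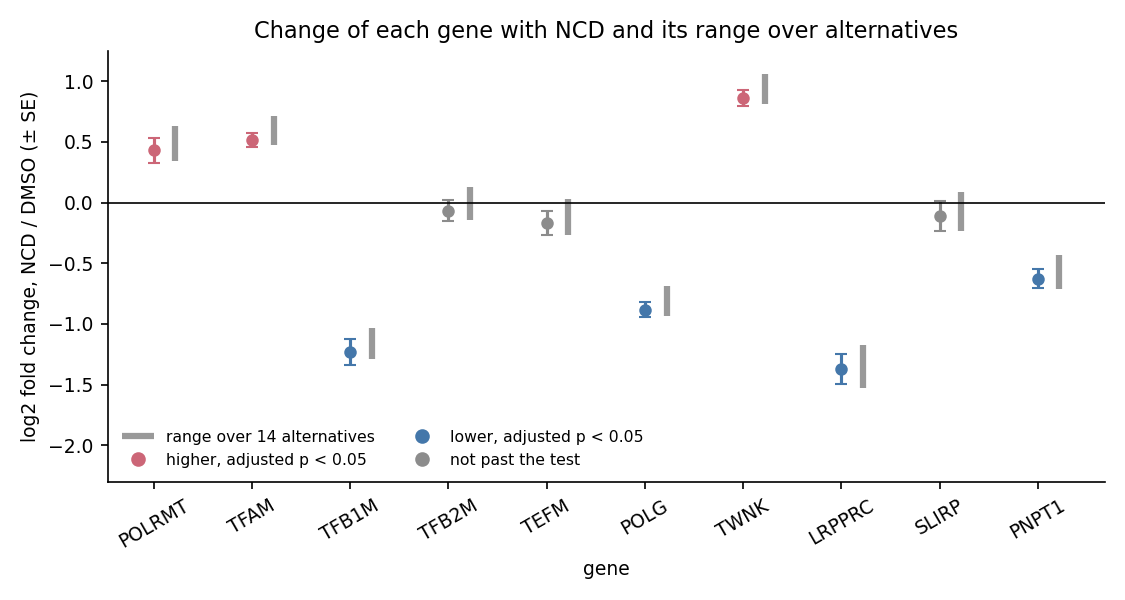
Log2 fold change of each gene with NCD against DMSO, with its SE, and beside it a grey bar for the range over 14 other settings. The bars of the 7 genes that passed lie on 1 side of 0, and those of TFB2M, TEFM and SLIRP cross it.

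Among the factors that act on finished RNA, LRPPRC and PNPT1 fell and SLIRP gave no difference past the test. LRPPRC (ENSG00000138095, chr2:43886508-43996005, minus strand), the pentatricopeptide repeat protein that binds mitochondrial mRNAs, had 289, 350 and 295 CPM with DMSO and 112, 106 and 143 CPM with NCD. The highest NCD library, NCD3, was still well below the lowest DMSO library. LRPPRC fell by 1.37 on the log2 scale (SE 0.12, edgeR adjusted p = 9e-06), the largest absolute log2 fold change of the 10 genes, from 311 ± 33.4 to 120 ± 19.7 CPM (SD, n = 3).

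SLIRP (ENSG00000119705, chr14:77708071-77761104, plus strand), the small RNA-binding partner of LRPPRC, had 92.6, 69.0 and 86.4 CPM with DMSO and 81.0, 83.1 and 65.5 CPM with NCD. The groups overlapped almost wholly. The log2 fold change was -0.11 (95% interval -0.40 to 0.17, edgeR adjusted p = 0.448). The count ratio of LRPPRC to SLIRP was 3.12, 5.07 and 3.41 with DMSO and 1.39, 1.27 and 2.18 with NCD. Each NCD library had a lower ratio than each DMSO library, and the ratio was 2.41-fold lower with NCD, a log2 difference of -1.27 beside a pooled SD of 0.40 (exact permutation p = 0.1). Per length, SLIRP was the most abundant of the 10 RNAs in both groups, at 203 CPM per kb with DMSO and 188 with NCD, while LRPPRC went from 49.1 to 19.0. Lengths are those of 1 principal transcript per gene, 408 nt for SLIRP and 6335 nt for LRPPRC. How far levels per length and their order depend on this choice was not tested.

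PNPT1 (ENSG00000138035, chr2:55634265-55693910, minus strand) had 92.6, 98.2 and 87.8 CPM with DMSO and 58.4, 55.9 and 65.7 CPM with NCD. The groups did not overlap. It fell by 0.63 on the log2 scale (SE 0.08, edgeR adjusted p = 9.53e-05), and its level was 1.55-fold lower. TFAM and LRPPRC followed SLIRP in level per length with DMSO, at 36.5 and 49.1 CPM per kb, and their order was the opposite with NCD, at 52.2 and 19.0. The count ratio of TFAM to LRPPRC was 0.714, 0.554 and 0.655 with DMSO and 2.46, 2.72 and 1.99 with NCD. The ratio was 3.72-fold higher with NCD, without overlap (log2 difference 1.89 beside a pooled SD of 0.21). This pair too was formed after the data were seen. Since TFAM rose and LRPPRC fell without overlap, the separation of their ratio was fixed in advance and is only a description. At the other end, POLRMT was lowest per length with DMSO, at 6.52 CPM per kb, and TFB1M was lowest with NCD, at 3.76. PNPT1, POLG, TEFM, TFB2M, TWNK and TFB1M lay between these ends with DMSO, in that order, from 21.1 to 8.82 CPM per kb, and the neighbours TEFM and TFB2M (15.02 ± 1.83 and 14.4 ± 0.322, SD, n = 3) did not differ beyond their spread. With NCD the order was SLIRP, TFAM, TWNK, LRPPRC, TFB2M, PNPT1, TEFM, POLG, POLRMT and TFB1M. There the neighbours TWNK and LRPPRC (20.3 ± 0.808 and 19.0 ± 3.12) did not differ beyond their spread, and neither did TFB2M, PNPT1 and TEFM, at 13.7, 13.6 and 13.4 CPM per kb, nor POLG and POLRMT, at 9.91 ± 0.207 and 8.80 ± 1.16.

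**Figure D3:**
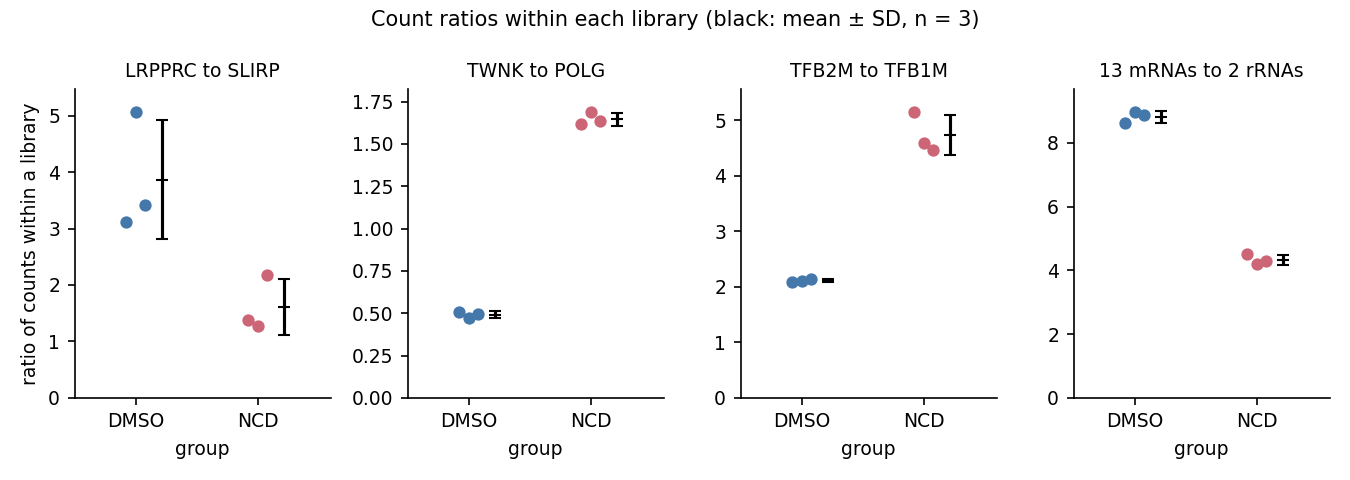
Count ratios within each library of LRPPRC to SLIRP, TWNK to POLG, TFB2M to TFB1M, and the 13 mitochondrial mRNAs to the 2 mitochondrial rRNAs, on linear axes that start at 0, with 1 point for each of the 3 DMSO and 3 NCD libraries and black bars for the mean ± SD. In all of these the groups are separate, for example at 0.472 to 0.509 against 1.62 to 1.69 for TWNK to POLG.

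Gene length moved with the response across all genes. With tested genes split into 10 classes of genomic span, the median log2 fold change was 0.43 in the class of 13.2 to 20.1 kb and -0.93 in the class of 89.7 to 153 kb. The POLRMT gene spans 16.4 kb and TFAM 14.2 kb, and their log2 fold changes of 0.43 and 0.52 lay at and just above the median of their class. TWNK, at 7.04 kb, had a log2 fold change of 0.86 beside a class median of 0.38. LRPPRC spans 109 kb, and its log2 fold change of -1.37 stood in a class of which 73.7% of genes passed the test in the lower direction. PNPT1, at 59.6 kb, was at -0.63 beside a class median of -0.35. TFB1M, at 57.0 kb, and POLG, at 29.7 kb, had log2 fold changes of -1.23 and -0.88 in classes whose medians were -0.03 and 0.11. SLIRP, at 53.0 kb, was at -0.11 in the class of TFB1M. TEFM, at 9.485 kb, was at -0.17 beside a class median of 0.41, and TFB2M, at 25.77 kb, was at -0.07 beside 0.32. The part of gene length in these results was not tested.

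Some of the 10 genes share transcribed bases with a neighbour on the opposite strand, and the strandedness of the counting is not given in the sources used here. POLG shares 458 exonic bases (7.66% of its exonic bases) with FANCI, a DNA repair gene that fell by 1.33 on the log2 scale (edgeR adjusted p = 6.9e-06). FANCI had at most 3057 counts, 199% of the highest POLG count. TFB1M shares 215 bases (7.86%) with TIAM2, which had at most 135 counts (60.5% of the highest TFB1M count) and a log2 fold change of -2.44. TWNK shares 149 bases with MRPL43, which had a log2 fold change of 0.15, and SLIRP shares 118 bases with SNW1, at -0.02. MRPL43 had at most 1497 counts, 90.4% of the highest TWNK count, and SNW1 at most 4582, 247% of the highest SLIRP count. TEFM shares 542 bases (16.8%) with the antisense gene AC130324.3, which had at most 36.0 counts and a log2 fold change of -1.11 that did not pass the test (edgeR adjusted p = 0.119). It also shares 301 bases (9.34%) with ADAP2, which had at most 139 counts and rose by 1.21 on the log2 scale. The part of these neighbours in the counts was not tested. Pseudogenes named after the 10 genes had at most 4.02 counts in any library.

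The products of mitochondrial DNA were lower for mRNA and slightly higher for rRNA. All 13 mRNAs fell, with a median log2 fold change of -0.81. Of all tested genes 34.1% passed as lower, and their median log2 fold change was 0.04. The 12 heavy-strand mRNAs are cut from shared polycistronic RNA, so they are not separate results. The complex I subunit MT-ND5 was lowest at -1.44 and its fellow subunit MT-ND1 highest at -0.34. The small rRNA MT-RNR1, which TFB1M methylates, had a mean of 2032 ± 210 CPM with DMSO and 2465 ± 143 CPM with NCD, a log2 fold change of 0.28 (SE 0.09, edgeR adjusted p = 0.0226). The large rRNA MT-RNR2 had a log2 fold change of 0.26 (SE 0.08, edgeR adjusted p = 0.013). Both rRNA calls are weak, since the adjusted p of MT-RNR1 was above 0.05 without DMSO2, DMSO3, NCD1 or NCD2 (0.0619, 0.0553, 0.084 and 0.087), and that of MT-RNR2 without DMSO3 or NCD2 (0.0965 and 0.0549). Of the 22 tRNAs, 2 passed the filter on low counts and neither passed the test.

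Within a library, the summed counts of the 13 mRNAs were 8.62, 8.98 and 8.88 times those of the 2 rRNAs with DMSO, and 4.501, 4.19 and 4.31 times with NCD. The groups were far apart, and the ratio was 2.04-fold lower with NCD (log2 difference -1.03 beside a pooled SD of 0.04). Each of these mRNAs fell and each rRNA rose without overlap, so this separation was fixed in advance and is given as a description. The mRNAs were lower by unequal amounts, and their log2 fold changes did not fall steadily with order along the heavy-strand transcript. MT-ND1 and MT-ND2, the first mRNAs along it, lay nearest 0, at -0.34 and -0.46. MT-ND4L and MT-ND5, farther along, were lowest, at -1.17 and -1.44. A trend with gene order was not tested. MT-CYB, which lies beyond MT-ND5, was at -0.84. MT-ATP6 was at -0.49 beside -0.78 for MT-CO1 and -0.81 for MT-CO2, which both lie before it. MT-ATP8, which overlaps MT-ATP6, was at -1.03, and MT-ND4, which overlaps MT-ND4L, was at -0.81. The part of read assignment between overlapping genes was not tested. Between the pair with the lowest and the highest value, picked after these were seen and so given as a description, the count ratio of MT-ND5 to MT-ND1 was 1.53, 1.58 and 1.53 with DMSO and 0.715, 0.689 and 0.753 with NCD, 2.15-fold lower. MT-ND6, the 1 mRNA made from the light strand, was counted at 0.0164, 0.0161 and 0.0170 of the 12 others together with DMSO and at 0.0126, 0.0132 and 0.0130 with NCD, a ratio 1.27-fold lower. How the library preparation selected RNA is not given in the sources used here, and rRNA and mRNA can be captured unequally.

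**Figure D4:**
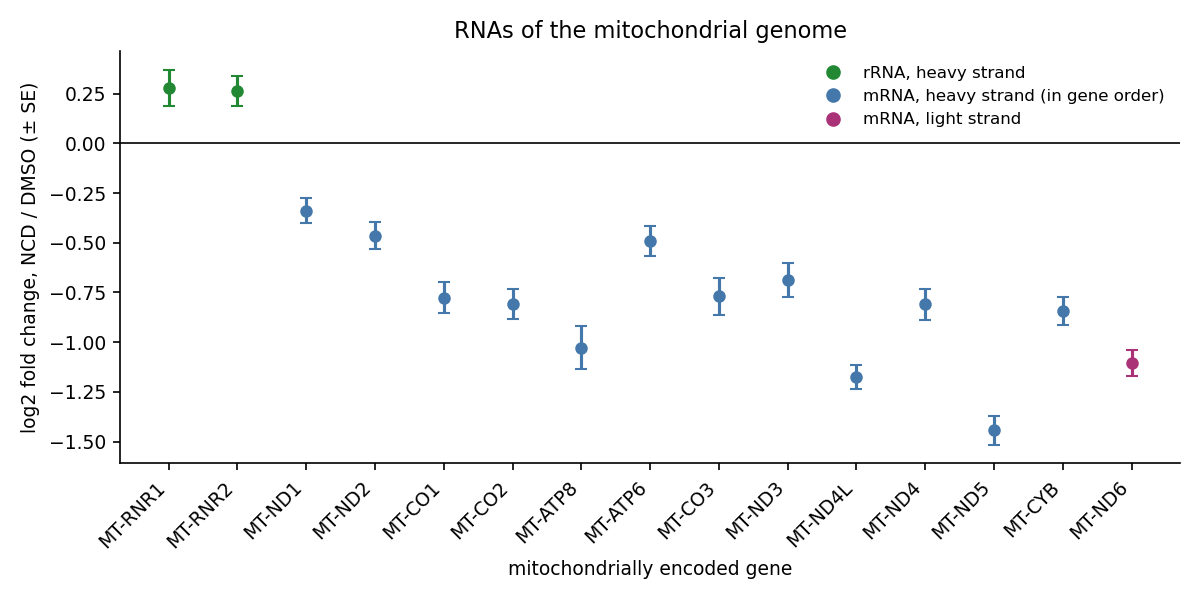
Log2 fold change with NCD against DMSO, with its SE, of the 13 mRNAs and 2 rRNAs encoded in mitochondrial DNA. All 13 mRNAs lie below 0, with MT-ND5 lowest at -1.44, and the 2 rRNAs lie above 0 at 0.28 and 0.26.

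Counts from mitochondrial DNA made up 6.62%, 6.39% and 6.74% of the DMSO libraries and 4.92%, 4.90% and 4.97% of the NCD libraries. The share was 1.66 percentage points lower with NCD (6.58 ± 0.177% against 4.93 ± 0.0323%, SD, n = 3, exact permutation p = 0.1). Nuclear copies of mitochondrial sequence can share such reads, and the 404 annotated copies held 0.80% to 0.89% as many counts as the mitochondrial genes, with overlapping groups. Of these copies MTATP6P1 had the most, 5904 to 8815 counts in a library, beside 59317 to 79438 for MT-ATP6. The part of such sharing in MT-ATP6 was not tested. Of 10 genes often taken as markers of mitochondrial content, 7 fell, 1 rose and 2 did not pass the test, with a median log2 fold change of -0.25. Of these markers 80.0% passed, beside 69.3% of all tested genes (34.1% lower, 35.3% higher). With library totals, and likewise with ribosomal protein genes as the reference, 4 passed as lower and 1 as higher. Citrate synthase CS fell by 0.74 on the log2 scale (edgeR adjusted p = 3.12e-06), and the import chaperone HSPA9 rose by 0.69 (edgeR adjusted p = 5.6e-06). The part of mitochondrial content in the results was not tested.

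Other genes of mitochondrial DNA replication and the nucleoid moved both ways. Of 15 tested, 5 rose, 4 fell and 6 did not pass the test, with a median log2 fold change of -0.10. Of this list 60.0% passed, beside 69.3% of all tested genes, and the 8 lists of related genes ranged from 57.1% to 83.3%. With ribosomal protein genes as the reference, 2 passed as higher and 3 as lower. SSBP1, the single-stranded DNA binding protein of the replication fork, fell by 0.83 on the log2 scale (257 ± 38.8 to 144.6 ± 6.49 CPM, edgeR adjusted p = 9.33e-05). TOP3A, a topoisomerase that separates the replicated circles, rose by 0.47 (edgeR adjusted p = 0.000132), and the nuclease ENDOG rose by 1.15 from 7.24 ± 2.62 to 16.0 ± 2.39 CPM (edgeR adjusted p = 0.00159). TWNK, POLG and SSBP1, which together drive a minimal replication fork, thus gave 1 rise and 2 falls. Among 10 tested genes of nucleotide supply, 4 rose and 4 fell, including the p53-inducible ribonucleotide reductase subunit RRM2B at 0.90, its partner RRM1 at -0.68, and SUCLA2 at -1.03. With the ribosomal reference 2 of these 10 passed as higher and 4 as lower. Under TMM 80.0% of them passed, beside the 69.3% of all tested genes. The SUCLA2 gene lies in the longest class of genomic span, at 292 kb, where the median log2 fold change was -2.09.

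Among 7 genes of transcription termination and factor turnover, 3 rose and 1 fell, so that 57.1% passed beside 69.3% of all tested genes. The 1 that fell was MRPL12, a ribosomal protein that also binds POLRMT, with a log2 fold change of -0.98 (93.7 ± 13.2 to 47.5 ± 4.40 CPM, edgeR adjusted p = 5.12e-05). LONP1, the matrix protease that degrades TFAM, rose by 0.34 (edgeR adjusted p = 0.00171). TFAM and the protease for which it is a substrate thus both rose at the RNA level.

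Of 21 genes of mitochondrial RNA processing and decay, 8 rose, 5 fell and 8 did not pass the test, with a median log2 fold change of 0.02. The share that passed was 61.9%, beside 69.3% of all tested genes. PRORP, the nuclease of mitochondrial RNase P, fell by 2.51 (30.4 ± 2.82 to 5.34 ± 0.0884 CPM, edgeR adjusted p = 9.36e-08). The FAST kinase family members FASTKD2, which binds MT-RNR2 and MT-ND6 RNA, and FASTKD1 fell by 1.11 and 1.04. PTCD1, a relative of LRPPRC in the pentatricopeptide repeat family, rose by 1.16 (edgeR adjusted p = 1.22e-05). PRORP lies in the longest class of genomic span, at 156 kb, where the median log2 fold change was -2.09. FASTKD2 spans 27.1 kb and belongs to a class with a median of 0.32.

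RNA modification genes had log2 fold changes from -3.07 to 0.88, the widest range of the 8 lists. Of 25 RNA modification genes, 11 rose, 9 fell and 5 did not pass the test, so that 80.0% passed beside 69.3% of all tested genes. With library totals 14 passed as higher and 5 as lower, and with the ribosomal reference 10 and 5. METTL15, which methylates the small rRNA as TFB1M does, fell by 3.07 (29.1 ± 0.486 to 3.44 ± 0.184 CPM, edgeR adjusted p = 2.67e-08). Its gene spans 419 kb and lies in the longest class, whose median was -2.09. TRMT61B, METTL8 and RPUSD4 fell by 1.91, 1.61 and 1.12, and the large-rRNA methyltransferase MRM2 rose by 0.86 (edgeR adjusted p = 2.96e-06). Of 15 translation factors, 5 rose and 6 fell, or 7 and 4 with library totals, and 4 and 4 with the ribosomal reference. Under TMM 73.3% of these factors passed. GFM2, a ribosome recycling factor, and MTRF1L, a release factor, fell by 1.97 and 1.07, while MTFMT, which formylates the initiator tRNA, rose by 1.05.

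Of 12 nuclear regulators of these genes, 2 rose, 8 fell and 2 did not pass the test, with a median log2 fold change of -0.48. Of these regulators 83.3% passed, beside 69.3% of all tested genes (34.1% lower, 35.3% higher). With library totals 4 passed as higher and 6 as lower, and with the ribosomal reference 1 and 6. NRF1, whose motif is printed above for POLRMT, TFB1M and TFB2M, fell by 1.18 (20.7 ± 0.593 to 9.12 ± 0.835 CPM, edgeR adjusted p = 6.9e-06). For GABPA, the DNA-binding subunit of GABP, the log2 fold change was 0.29 and did not pass the test (edgeR adjusted p = 0.0698), and its partner GABPB1 fell by 1.296. The coactivators PPARGC1A and PPARGC1B fell by 0.88 and 1.15 at low levels, 7.71 and 9.53 CPM with DMSO, and the third of the family, PPRC1, rose by 0.37 (edgeR adjusted p = 0.00185). ESRRA, a nuclear receptor that works with them, rose by 0.58, and MEF2A fell by 1.65. NRF1, PPARGC1A, PPARGC1B and MEF2A all lie in the class of 89.7 to 153 kb, the class of LRPPRC. Of the 3 genes with the NRF1-type motif, POLRMT rose, TFB1M fell and TFB2M gave no difference past the test. The part of NRF1 in these changes was not tested.

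**Figure D5:**
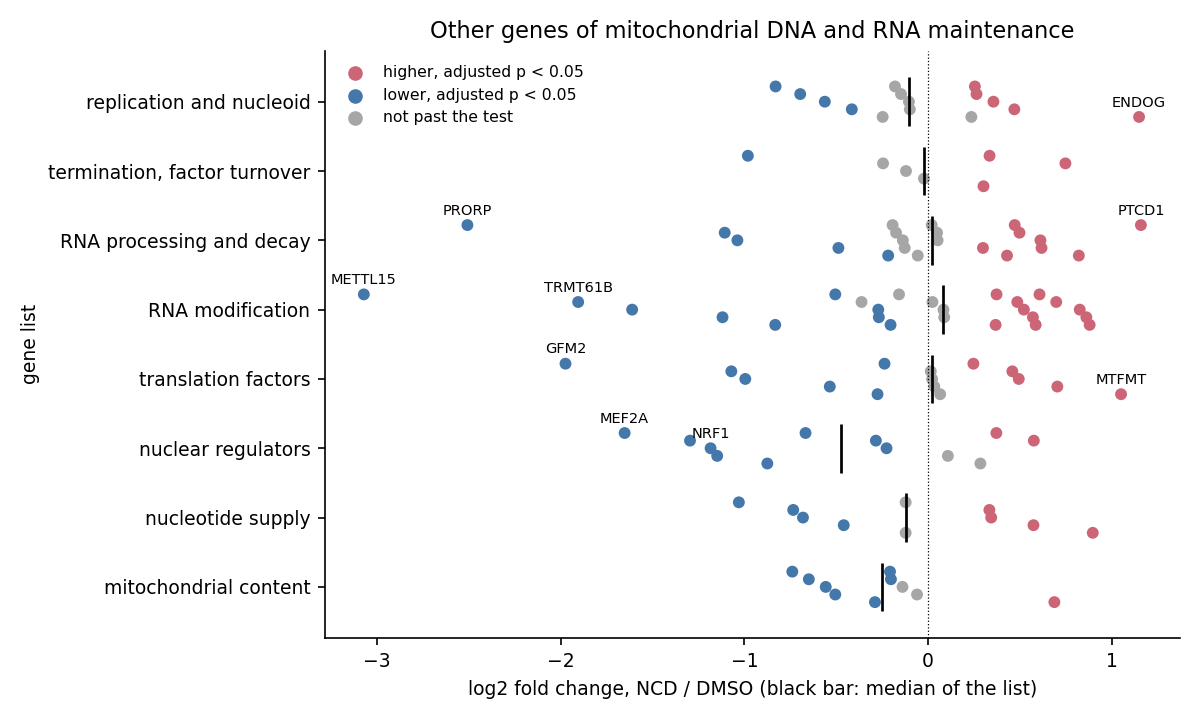
Log2 fold change with NCD against DMSO of each tested gene in 8 lists of related genes, coloured by the edgeR call, with a black bar at the median of each list. Points lie on both sides of 0 in every list, and the median is lowest for the nuclear regulators, at -0.48.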

How the data were processed

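RNA-seq of 3 DMSO and 3 NCD libraries was analysed. The authors deposited, for each library on its own, expected counts per Ensembl gene, which they made by alignment with HISAT2 and estimation with RSEM on GRCh38 without normalization. Versions, the annotation release and strandedness are not given in the sources used here. In each library 25 stray lines without a gene were skipped. Symbols were found for 62720 of 63241 identifiers. Coordinates and spans were read from GENCODE release 29 (GRCh38), in which 58228 identifiers were found, with 99.44% or more of the counts in every library. Promoters came from RefSeq.

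Expected counts were rounded and analysed in R 4.3.3 with edgeR 4.0.16 (filterByExpr, TMM factors 0.911 to 0.949 for DMSO, 1.059 to 1.092 for NCD, glmQLFit, glmQLFTest, Benjamini-Hochberg adjustment over all tested genes). SE was computed as the size of the log2 fold change over the root of F, and 95% intervals use the t quantile at edgeR's total degrees of freedom. On counts simulated for this comparison with folds of 2 and 4, 197 of 200 changed genes were recovered with 8 false calls among 14561 tested. Far fewer genes were changed there than passed in the data, so false calls under so wide a response were not measured. No pair of libraries of a group was alike within sampling noise (chi-square per degree of freedom at least 2.06). Permutation tests used scipy 1.17.1, with pandas 2.3.3, numpy 2.4.6 and matplotlib 3.10.9 for tables and figures. At these depths counts of a few per library cannot be measured, and precision is that of 3 libraries per group.

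The genes, the related lists and the tests were chosen with earlier results of these data known. Named genes are the 10 members, the mitochondrially encoded RNAs, in each related list the gene with the smallest p in each direction and any past a log2 fold change of 1 in size, and 6 regulators. Within-library ratios, the interferon-response motif and the genes named as examples of extremes among the mitochondrial mRNAs were added after the data were seen. Alternatives were DESeq2 1.42.0, limma-voom (limma 3.58.1), scaling by library totals, by 86 ribosomal protein genes or by TMM without the 37 mitochondrial genes, no filter, at least 10 counts in every library, the replicate number as a block, each library left out in turn, and a fold threshold added or removed. The study's other experiments were not analysed here.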

Additional observations from a re-analysis of the deposited data

How the results depend on the processing

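The 7 called genes among the 10 kept their direction and their call in all 14 alternative fits, which share the same libraries, or 98 of 98 results. The closest to the threshold was POLRMT, with an edgeR adjusted p = 0.0492 with ribosomal protein genes as the reference. Scaling by library totals moved the median over all tested genes up by 0.20 on the log2 scale and the share of higher genes among those past the test from 50.9% to 62.1%, and under it TFB2M, TEFM and SLIRP changed sign, to 0.129, 0.031 and 0.087, still short of the test (edgeR adjusted p = 0.194, 0.797 and 0.513). Without 1 library at a time, 7 to 8 of the 10 passed, and the number of differentially expressed genes was 4653 to 5049 beside 4736. With no fold threshold 10602 genes passed. With the fold threshold added, 2 of the 10 genes and 4 of the 13 mitochondrial mRNAs passed, all of them lower. Of all tested genes 31.0% passed both thresholds in either direction and 17.5% in the lower direction. With ribosomal protein genes as the reference, 5 replication and nucleoid genes passed in place of 9, and 5 content markers in place of 8, which was also 5 with library totals. Without the 2 rRNAs in the counts, the mitochondrial share was 1.91 points lower with NCD (a difference of -1.91). The causes of these shifts were not tested.

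Replicate numbers did not pair the libraries, since deviations of same-numbered libraries correlated at 0.216, -0.185 and 0.023. With a replicate block, 4723 genes were differentially expressed, and 7 of the 10 genes and 13 of the 13 mitochondrial mRNAs passed, with no call among them changed. Leaving out a library moved no log2 ratio between groups beyond -1.51 to -1.06 for LRPPRC to SLIRP and 0.47 to 0.72 for POLRMT to TEFM, the widest of the ranges. Low counts limit the tRNAs of mitochondrial DNA, which summed to at most 85 counts in a library.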
